A study of Mus musculus with 12 samples.

Results

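The contact map of the mouse Shh locus in stem cells labelled tSBE(6+2-Vp64) was compared with that of neural progenitor cells (NPC). The question was whether switching on enhancers of Shh artificially in stem cells gives the map of differentiated cells. The members were all libraries whose titles name tSBE(6+2-Vp64) or NPC, which made 8 of the 12 deposited files, 4 for each group. They hold 7 distinct libraries, since the NPC files of biological replicate 1, technical replicate 1 and of biological replicate 2, technical replicate 2 carry the same values to within 4.02e-08. That library was counted in replicate 1, so the comparison is of 2 biological replicates against 2. The cells were 46c, a mouse embryonic stem cell (ESC) line that carries a reporter at the neural gene Sox1. NPC were derived from it by 7 days in N2B27, a serum-free medium used for neural differentiation. The tSBE(6+2-Vp64) cells were transfected 46c ESC. The label is taken to mean TALEs, designed DNA-binding proteins, aimed at SBE6 and SBE2 and fused to Vp64, a strong transcription activator. The share of cells that took up the activator, any sorting, and how separate the replicates were are not stated in the labels. The p-values below therefore measure only the spread between these samples, which may be technical. For pairs of elements, defined below, that spread was a trend over all such pairs, not that of each pair's own replicates. Untransfected ESC (2 replicates) are given beside both groups as the level of the starting cells. A transfected group without the activator was not analysed here. The assay reads DNA contacts only, so cell identity could not be checked against marker genes.

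Shh encodes a secreted signal that patterns the neural tube, the forebrain and the limb. Its enhancers are spread over a gene-poor domain that runs from Shh to Lmbr1. SBE2 and SBE4 act in the forebrain, SBE6 acts in neural progenitors, and ZRS, the limb enhancer, lies within an intron of Lmbr1. Enhancers may act by touching the promoter or by other routes, and 5C measures how often fragments of the locus are ligated to each other. In 5C, crosslinked chromatin is cut with HindIII and religated, and oligonucleotides annealed to the joined ends are sequenced. All values are signal, in reads per 1000 reads of a library, over 341 fragments of chromosome 5 from 28317087 to 30005000 (mm9) that all files share. A read was found in at least 1 library for 28980 fragment pairs. Elements were windows reaching 20 kb to either side of an approximate position, and their values are means per fragment pair. Gene models in mm9 were not used here, and fragments are placed by window only.

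Depth and evenness differed widely between libraries. Depth, recovered from the smallest step between values, was 32946119, 38361093, 11058440 and 9253072 reads in the tSBE(6+2-Vp64) libraries (replicate 1, technical replicates 1 and 2, then replicate 2 likewise). The NPC libraries had 43175691 and 978050 in replicate 1 and 1870325 in replicate 2. With each library thinned to 978050 reads, 96.2%, 60.5%, 36.5% and 25.5% of the 28980 pairs had a read in tSBE(6+2-Vp64), in the same order, and 99.7%, 80.9%, 48.0% and 32.9% did before thinning. In NPC these shares were 53.7%, 57.3% and 55.0% thinned and 74.2%, 57.3% and 58.4% unthinned. The NPC libraries lay close together, whereas replicate 1, technical replicate 1 of tSBE(6+2-Vp64) stood apart with a read in nearly every pair. Results that rest on this library are given with and without it.

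The clearest difference lay in a few fragment pairs far apart that took a large part of the NPC reads. There were 21 such pairs, each over 50 kb apart and holding over 0.5% of at least 1 of the 11 distinct libraries, and they touched 39 fragments. Because they were picked on signal in these libraries, their values are described without a test. Together they held 10.8% and 17.8% of the signal in the 2 tSBE(6+2-Vp64) replicates and 45.5% and 40.5% in the 2 NPC replicates. In ESC they held 0.222% and 12.8%. Transfected ESC labelled for a single enhancer, 1 library each, had 31.1% (tSBE2-Vp64) and 3.69% (tSBE6-Vp64). The tSBE2-Vp64 library was thus above every tSBE(6+2-Vp64) library. By library the range was 5.21% to 27.6% in tSBE(6+2-Vp64) and 40.5% to 49.7% in NPC, so the 2 groups did not overlap. The activated cells stood between ESC and NPC in their mean (14.3% ± 4.97 against 43.0% ± 3.55, SD, n = 2 each), with replicate 1 below ESC replicate 2.

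**Figure D1:**
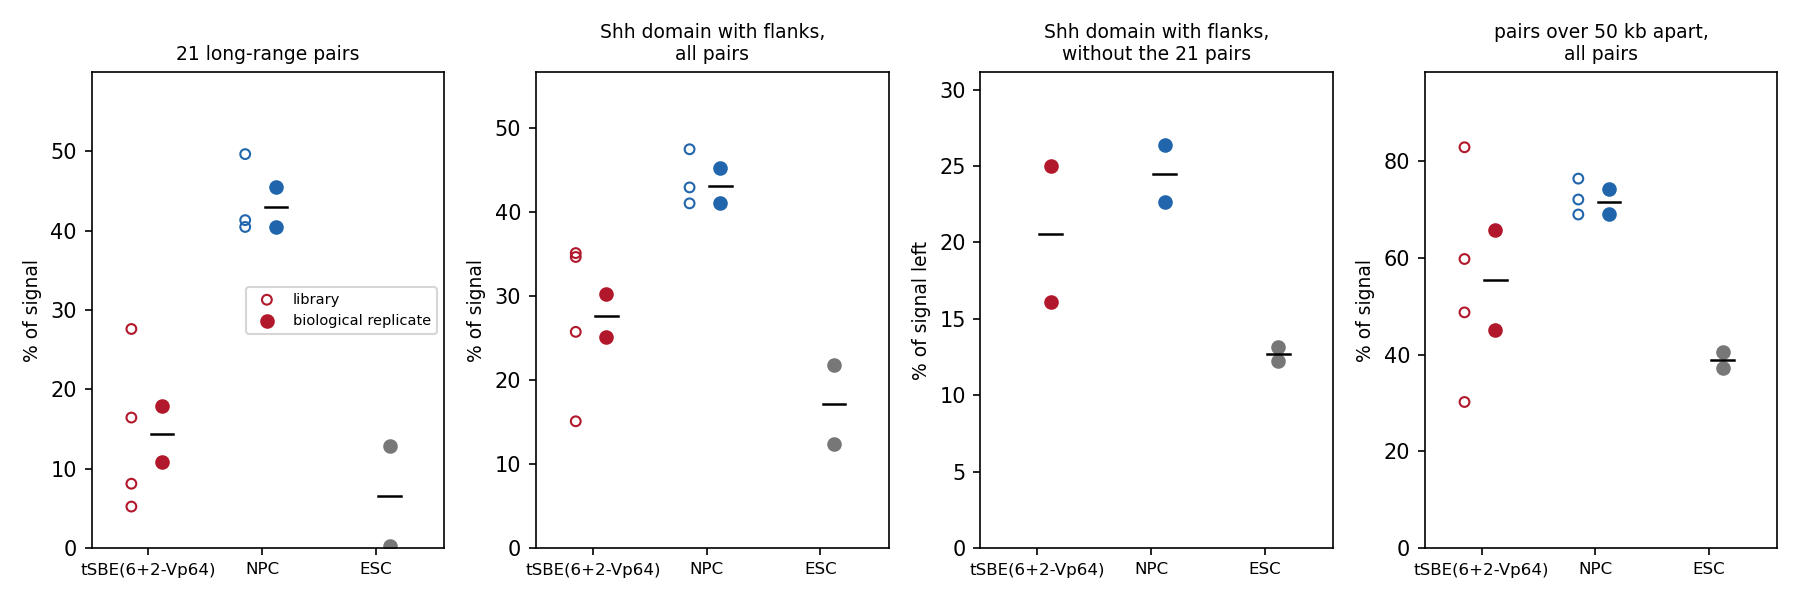
Percent of signal (y axes, from 0) held by the 21 long-range pairs, by pairs joining the Shh domain with its flanks with and without those 21 pairs, and by pairs over 50 kb apart. Open circles are libraries, filled circles biological replicates and lines their means; the first panel separates tSBE(6+2-Vp64) (10.8% and 17.8%) from NPC (45.5% and 40.5%), and in the third panel the replicates of the 2 groups overlap.

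The pair with the highest signal in all 4 replicates joined Shh_140 (chr5:28763979-28767078, mm9), on the side of Shh away from its enhancers, with Shh_260 (chr5:29166827-29168466) in the SBE4 window. It had 30.6 and 35.7 per 1000 in tSBE(6+2-Vp64) replicates 1 and 2, 120 and 103 in NPC, and 0.492 and 33.2 in ESC. Both NPC values were over those of the activated cells, and ESC replicate 2 lay among the latter. Shh_458 (chr5:29703904-29705290) in the Lmbr1 window with Shh_491 (chr5:29806189-29807449) in the Mnx1 window had 15.8 and 19.4 against 104 and 89.8. Mnx1 encodes a homeobox factor of motor neurons. Shh_178 (chr5:28884804-28887360) in the SBE6 window with Shh_295 (chr5:29253038-29259186) in the SBE2 window had 18.0 and 17.8 against 70.0 and 63.5. These 3 pairs were the 3 highest of the 21 in each of the 4 replicates.

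The 3 highest pairs were thus the same in both groups, at a lower level in the activated cells. Over the 21, the mean was lower in the activated cells in 15 and higher in 6. All 21 were above 0 in all 4 tSBE(6+2-Vp64) libraries. Among the 100 highest of the 28980 fragment pairs were 16 of the 21 in tSBE(6+2-Vp64) replicate 1, 18 in replicate 2 and 21 in each NPC replicate. In 13 of the 21 both replicates of tSBE(6+2-Vp64) lay below both of NPC, in 0 above, and in 8 they overlapped. Over all 28980 fragment pairs, 4.18% were lower without overlap and 25.1% higher. The choice of pairs bears on the count, since 5 of the 13 passed the limit of 0.5% in NPC libraries only, while 4 of the 8 that overlapped passed it in tSBE(6+2-Vp64) libraries only. The ratio of the NPC mean to the tSBE(6+2-Vp64) mean had a median of 2.82 and ran from 0.233 to 8.70. The lowest ratio belonged to Shh_64 with Shh_425, with 0.954 and 12.02 in the activated cells and 1.49 and 1.54 in NPC. Its high value came from replicate 2, technical replicate 1 (22.7), since the technical replicate beside it had 1.33. Shh_463 with Shh_491, again from the Lmbr1 to the Mnx1 window, gave the highest ratio, with 0.208 and 1.43 against 8.38 and 5.86, and is one of those that passed in NPC libraries only. Others among the 10 highest included Shh_13 with Shh_81 (6.66 and 8.83 against 31.0 and 33.4) and Shh_330 with Shh_529 (5.73 and 5.72 against 25.1 and 20.9). Neither of these has an end in an element window. Shh_20 with Shh_407 had 1.49 and 6.60 against 13.7 and 11.6, and Shh_460 with Shh_491 had 3.32 and 11.2 against 13.4 and 18.0. Shh_128 with Shh_494 (3.75 and 11.9 against 14.4 and 7.98) and Shh_143 with Shh_321 (7.20 and 12.6 against 7.82 and 7.58) overlapped between groups. Shh_143 lies in the Shh window, and this pair was the fourth highest of all in both tSBE(6+2-Vp64) replicates and the eleventh in both NPC replicates.

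**Figure D2:**
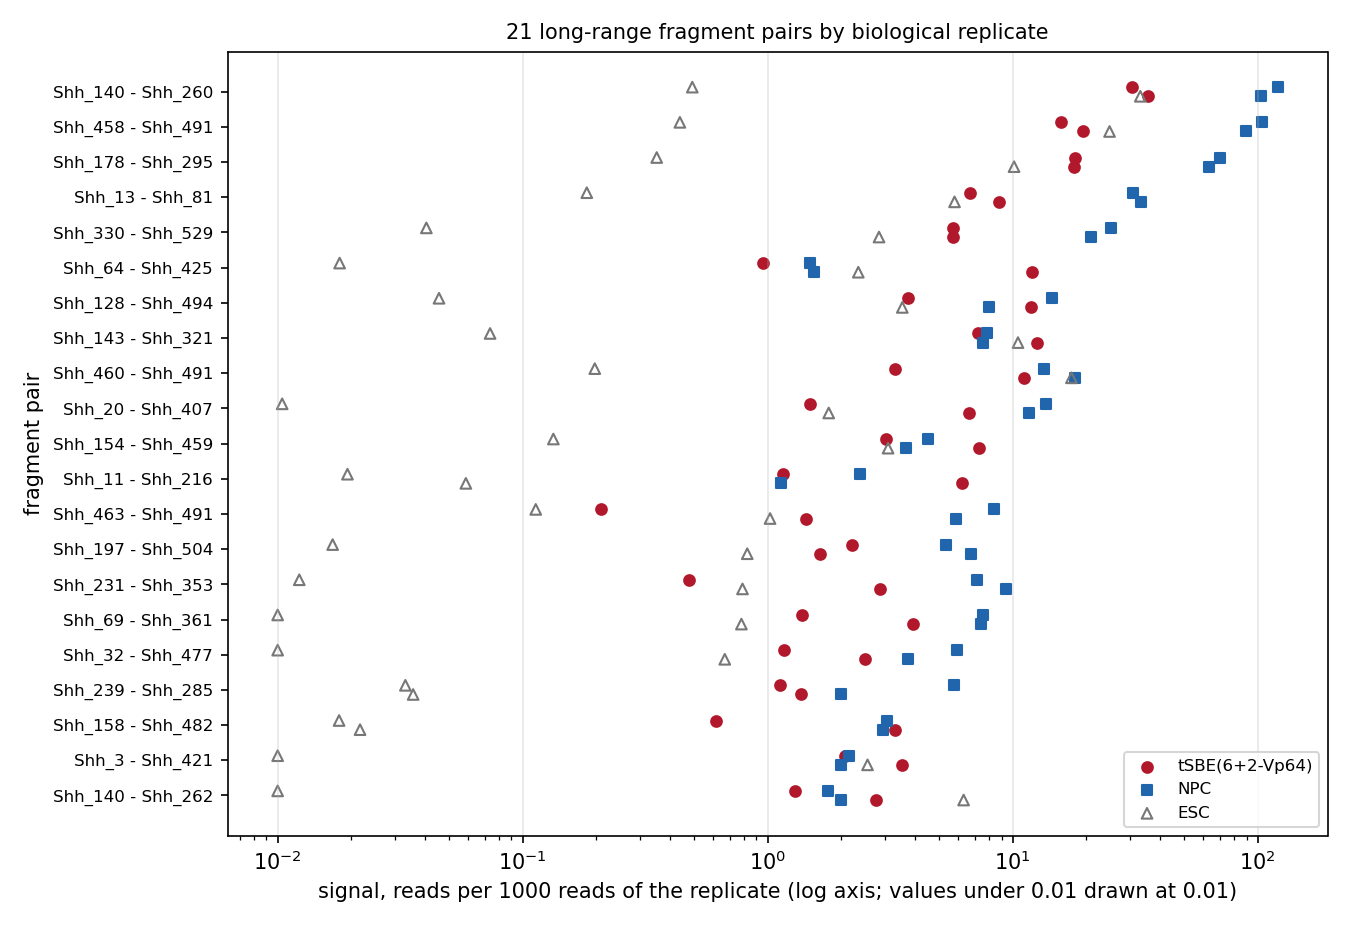
Signal of the 21 long-range fragment pairs (rows) in reads per 1000 on a log axis, each point a biological replicate, with ESC values under 0.01 drawn at 0.01. In 13 pairs both tSBE(6+2-Vp64) replicates lie left of both NPC replicates, and in the other 8 the replicates of the 2 groups overlap.

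Of the 21 pairs, 13 joined the Shh domain, which reaches from Shh to Lmbr1, with sequence outside it, 4 lay within it and 4 outside. A further pair, Shh_379 with Shh_403, fell just short of the distance limit at 45.2 kb and behaved alike, with 4.89 and 2.67 in tSBE(6+2-Vp64), 21.995 and 24.2 in NPC, and 0.0716 and 3.04 in ESC.

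Measured over the whole map, the activated cells had less signal crossing the edges of the Shh domain than NPC. The share of signal joining the domain with its flanks was 30.2% and 25.1% in tSBE(6+2-Vp64) (27.6% ± 3.60, SD, n = 2) and 45.1% and 41.0% in NPC (43.1% ± 2.95). In ESC it was 12.4% and 21.8%. Both replicates of the activated cells therefore lay between those of ESC and those of NPC. With 2 replicates a side the smallest p of an exact permutation test is 0.333, so none of these shares was tested. The difference of 15.5 percentage points fell to 3.92 without the 21 long-range pairs. Without the 21 pairs the shares were 25.0% and 16.1% in tSBE(6+2-Vp64), 26.4% and 22.6% in NPC, and 12.2% and 13.1% in ESC. The replicates of tSBE(6+2-Vp64) and NPC then overlapped, while both of the former were still above both of ESC. Single libraries of tSBE(6+2-Vp64) ran from 15.1% to 35.1% with all pairs, within a replicate (35.1% and 15.1% in replicate 2) as far as over the group.

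The same held for signal inside the domain, with the same edges and the same limit. It was 41.2% and 43.4% in tSBE(6+2-Vp64), 33.5% and 36.3% in NPC, and 52.4% and 46.8% in ESC. Without the 21 pairs the activated cells had 43.9% and 48.7% and NPC 45.3% and 47.8%, with no separation left. Signal within the flank beyond Lmbr1, which holds Nom1, Mnx1 and Ube3c, was 11.99% and 14.7% against 7.74% and 8.44%, and ESC had 18.1% and 14.8%. There the groups stayed apart without the 21 pairs (13.6% and 17.6% against 12.7% and 13.2%). Within the flank beyond Shh, which holds Insig1, En2, Cnpy1 and Rbm33, the shares were 11.7% and 13.4% against 8.96% and 10.9%, and they overlapped without the 21 pairs (12.5% and 14.9% against 10.8% and 12.6%).

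Pairs over 50 kb apart held 65.8% and 45.0% of the signal in tSBE(6+2-Vp64) and 74.3% and 69.0% in NPC, beside 37.3% and 40.6% in ESC. Replicate 1 of the activated cells owed its value to technical replicate 1 (82.9%), the library that stood apart, which was above all 3 NPC libraries (69.0% to 76.4%). Its technical replicate 2 had 48.7%. Without that library the difference between the groups widened from 16.2 to 24.8 percentage points lower in tSBE(6+2-Vp64). Without the 21 pairs it was 3.08 points, and the replicates of the activated cells (60.3% and 34.3%) then lay on either side of those of NPC (52.8% and 47.9%). The slope of log10 mean signal on log10 distance from 20 to 1000 kb was -0.367 and -0.386 in tSBE(6+2-Vp64), -0.239 and -0.348 in NPC, and -0.675 and -0.480 in ESC. Without the 21 pairs it was -0.435 and -0.523 against -0.468 and -0.571, overlapping and with the mean difference turned in sign (from -0.083 to 0.041).

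Between the windows as drawn, contacts of Shh with its enhancers did not separate the activated cells from NPC. For Shh with SBE6, a target of the activator, the signal was 0.0329 and 0.0113 in tSBE(6+2-Vp64), 0.0195 and 0.0163 in NPC, and 0.0232 and 0.0162 in ESC. The replicates of the activated cells lay on either side of both other groups. The log2 difference from NPC was 0.12 (SE 0.58, 95% interval -1.02 to 1.26, adjusted p = 0.983 by limma). Each library was scaled to the same sum, of which the 21 pairs held more in NPC, and the median log2 difference over 3509 pairs of 20-kb bins was 0.57. Relative to that median Shh with SBE6 stood at -0.45, and it was below the median in all 27 alternative settings tried, although its own sign turned in 8 of them. Its high replicate 1 came from technical replicate 1 (0.0468), with 0.0190 in technical replicate 2 and 0.0159 and 0.00673 in replicate 2. Without that library the log2 difference was -0.27, without tSBE(6+2-Vp64) replicate 1 it was -0.62, without replicate 2 it was 0.85, and without the 21 pairs -0.42.

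The contact of Shh with SBE2, the other target, was 0.0188 and 0.00696 in tSBE(6+2-Vp64) and 0.00665 and 0.00899 in NPC (log2 0.53, SE 0.62, interval -0.70 to 1.76). ESC had 0.0142 and 0.00978. Shh with SBE4, a forebrain enhancer not named in the label, had 0.0236 and 0.0122 against 0.0128 and 0.00916 (log2 0.62, SE 0.59, interval -0.55 to 1.78). With ZRS the values were 0.0266 and 0.0141 against 0.0112 and 0.0158 (log2 0.52, SE 0.59, interval -0.64 to 1.67). In each of these 3, replicate 1 of the activated cells was above both NPC replicates and replicate 2 was between them. Relative to the bin-pair median they stood at -0.04, 0.04 and -0.05 in that order, close to the map as a whole. None passed the test (adjusted p = 0.983 for each by limma). Without replicate 1, technical replicate 1 of the activated cells the log2 differences were 0.077 for SBE2, 0.083 for SBE4 and 0.11 for ZRS. For SBE4 the result depended on the edge of the Shh window. Shh_140, whose pair with Shh_260 in the SBE4 window was the highest of all, lies just outside it. With 40-kb windows, which take in Shh_140, the log2 difference of Shh with SBE4 was -1.61. In 20-kb bins, those at Shh with bin 29160001 had 1.47 and 1.78 against 5.58 and 4.81.

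**Figure D3:**
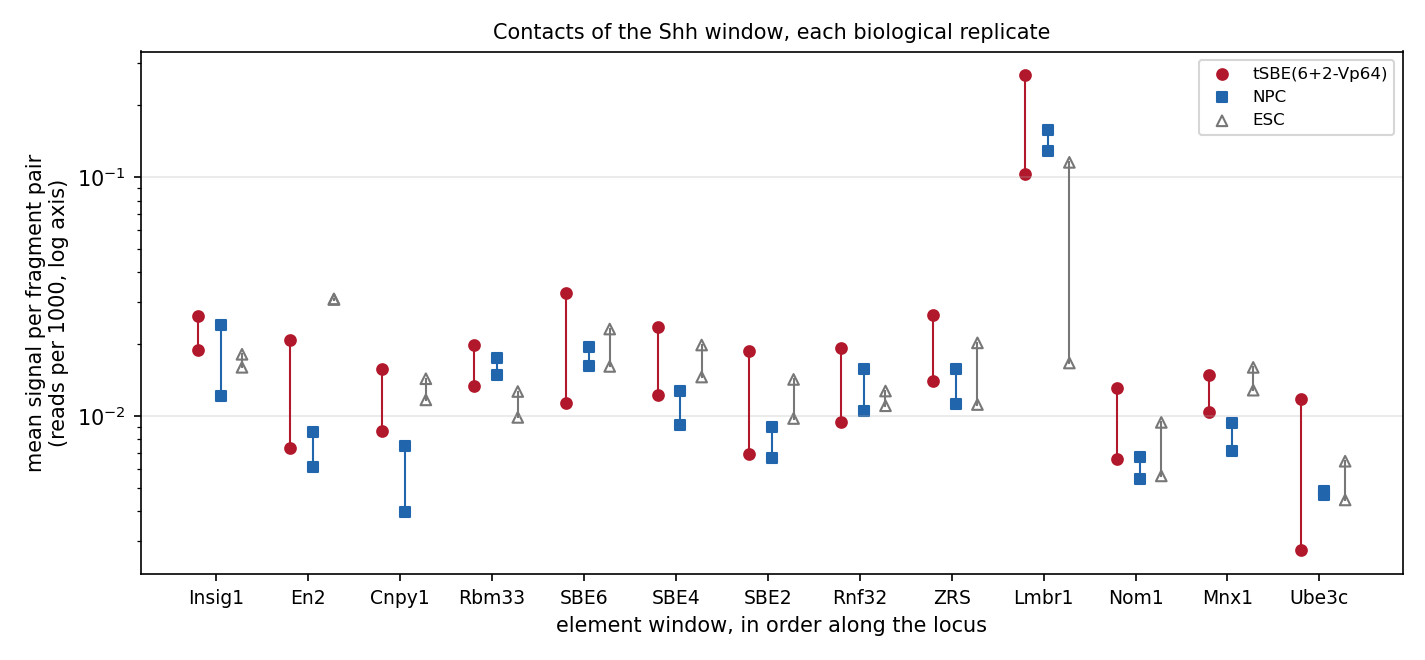
Mean signal per fragment pair between the Shh window and 13 other element windows (log axis), each point a biological replicate and each line joining the 2 replicates of a group. Both tSBE(6+2-Vp64) replicates lie above both NPC replicates for Cnpy1 and Mnx1, and for the other 11 elements the replicates overlap.

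Among the enhancers, the contact of SBE6 with SBE2, which are the targets of the activator, was lower in the activated cells than in NPC. It was 0.325 and 0.302 in tSBE(6+2-Vp64), 1.16 and 1.05 in NPC, and 0.0316 and 0.180 in ESC, so that the activated cells lay above ESC and below NPC without overlap. The log2 difference from NPC was -1.82 (SE 1.24, interval -4.25 to 0.62, adjusted p = 0.983 by limma), and the contact was 3.53 times as high in NPC. This value is nearly all 1 fragment pair: Shh_178 with Shh_295 gave 93.6% of it in tSBE(6+2-Vp64) and 98.9% in NPC, among 61 fragment pairs. Without that fragment pair the log2 difference was 0.52, and without all 21 long-range pairs it was -0.06, with 0.0327 and 0.0130 against 0.0229 and 0.0205. In the joint fit, the SE of an element pair came from a trend of spread on signal over all element pairs. It is not the spread of this pair's own replicates. The trend was fitted over all 5 groups, including ESC, whose replicates lie far apart here. Fitted on the 2 groups alone, SBE6 with SBE2 was lower with an adjusted p of 9.73e-07 by limma. By limma it also passed with the first ESC replicate left out (adjusted p = 2.91e-06) and with the second left out (adjusted p = 1.04e-06), and in none of the other 24 settings.

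The contacts of SBE4 with SBE6 and with SBE2, which hold none of the 21 long-range pairs, overlapped between the groups with all pairs included. SBE6 with SBE4 had 0.0477 and 0.0165 in tSBE(6+2-Vp64) and 0.0225 and 0.0257 in NPC (log2 0.22, SE 0.58, interval -0.93 to 1.37). SBE4 with SBE2 had 0.0600 and 0.0727 against 0.0582 and 0.0657 (log2 0.09, SE 0.65, interval -1.18 to 1.37), with ESC lower at 0.0496 and 0.0401. Leaving the 21 pairs out changes these contacts through the rescaling of each library. SBE4 with SBE2 then had 0.0675 and 0.0947 against 0.106 and 0.110, lower without overlap (log2 -0.43, unadjusted p 0.163 by limma). Relative to the bin-pair median it stood at -0.48 both with and without the 21 pairs. Its sign turned in 6 of 27 alternative settings. Neither of these contacts of SBE4 passed (adjusted p = 0.983 each by limma). The interval of SBE4 with SBE2 leaves room for changes of over 2-fold in either direction. That of SBE6 with SBE4 leaves room for over 2-fold higher but not for over 2-fold lower. Of the contacts with the limb enhancer ZRS, those of SBE6 and SBE2 overlapped, whereas that of SBE4 was higher in the activated cells without overlap. It stood at 0.0320 and 0.0202, where NPC had 0.0141 and 0.0143, and did not pass. Without the 21 pairs the groups were barely apart there (0.0361 and 0.0261 against 0.0260 and 0.0239). Relative to the bin-pair median, SBE4 with ZRS stood at 0.24 both with and without them. Over the 6 pairs among the 4 enhancers the median log2 difference was 0.13, below the bin-pair median, and -0.36 without the 21 pairs.

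Pairs with genes did not pass either, and each of the 5 of smallest p had at least 1 gene of the flanks. None of the 91 pairs of the 14 elements passed by limma (0%), and at an unadjusted p under 0.05 there were 0 (0%), with 4.55 expected. The log2 difference was above 0 in 77 (84.6%), below 0 in 14 (15.4%) and above the bin-pair median in 18 (19.8%). Replicates did not overlap in 20 element pairs, 16 higher in tSBE(6+2-Vp64) (17.6%) and 4 lower (4.4%). Without the 21 long-range pairs the balance turned, with 24 above 0 and 67 below, a median of -0.15 and, without overlap, 4 higher and 9 lower. Above the bin-pair median there were again 18. The smallest p (0.0603, adjusted p = 0.983 by limma) belonged to En2 with Rbm33. En2 is a homeobox gene of midbrain and hindbrain. The pair had 0.0462 and 0.0325 in tSBE(6+2-Vp64), 0.0146 and 0.0208 in NPC, and 0.0463 and 0.0322 in ESC (log2 1.11, SE 0.59, interval -0.05 to 2.28). The activated cells were at the level of ESC and above NPC.

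Lmbr1 with Nom1 came next, with 0.0470 and 0.0263 against 0.0165 and 0.0187 (log2 0.97, SE 0.59), and ESC had 0.0512 and 0.0300. Cnpy1 with Shh had 0.0158 and 0.00866 against 0.00753 and 0.00397 (log2 0.99, SE 0.65), beside 0.0143 and 0.0117 in ESC. Cnpy1 is a gene of the flank beyond Shh that was named for a role in midbrain signalling. Nom1 with Mnx1, which neighbour each other, had 0.0640 and 0.0552 against 0.0238 and 0.0373 (log2 0.98, SE 0.64), with ESC higher still at 0.0863 and 0.0786. In each of these 4 pairs both replicates of the activated cells were above both of NPC. Insig1 with Cnpy1 overlapped, with 0.0487 and 0.0248 against 0.0121 and 0.0271 (log2 0.91, SE 0.59). Insig1 encodes a regulator of sterol synthesis. All 5 stayed above 0 without the 21 pairs, at 0.30 to 0.51, and none passed. With only pairs over 50 kb apart kept, Lmbr1 with Nom1 (adjusted p = 0.0296) and Cnpy1 with Shh (adjusted p = 0.0335) passed by limma. In that setting the median over bin pairs itself rose to 0.88.

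Pairs of Cnpy1 were above 0 in 13 of 13 (median log2 0.56) and those of Shh in 13 of 13 (median 0.52), which is near the bin-pair median of 0.57. These medians were -0.043 and -0.054 without the 21 pairs. Pairs of SBE4 and of ZRS were also above 0 in 13 of 13, with medians of 0.42 and 0.32. Pairs of SBE2 were above 0 in 8 of 13 (median 0.09), those of SBE6 in 11 (median 0.22) and those of En2 in 7 (median 0.13). Genes within the flank beyond Lmbr1 had a median of 0.88 over 3 pairs, and genes within the flank beyond Shh 0.67 over 6. Genes of one flank with genes of the other had 0.22 over 12 pairs. Without the 21 pairs these 3 medians were 0.30, 0.064 and -0.28, against a bin-pair median of 0.048, so their order was kept. These lists share windows and samples and were not tested.

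The other element pairs lower in the activated cells without overlap were Lmbr1 with Mnx1 (0.474 and 0.759 against 2.93 and 2.66), SBE2 with Ube3c (0.0213 and 0.0188 against 0.0457 and 0.0280) and En2 with Mnx1 (0.0114 and 0.00512 against 0.0121 and 0.0166). The first holds Shh_458 with Shh_491, which gave 80.6% of its NPC value, and without the 21 pairs it was slightly higher in the activated cells (log2 0.25). The last 2 hold none of the 21, so leaving those out changed them through the rescaling of each library. Their log2 differences were then -1.36 and -1.38 (unadjusted p 0.0223 and 0.0226, adjusted p = 0.996 by limma). Relative to the bin-pair median, both stood at -1.38 with all pairs, and at -1.40 and -1.43 without the 21. Of SBE2 with Ube3c, 83.2% in NPC came from Shh_284 with Shh_533. ESC had 0.00671 and 0.0113 for this pair, below the activated cells. For En2 with Mnx1 ESC had 0.0281 and 0.0164, each above both replicates of the activated cells. This pair passed after quantile normalization, as 1 of 91 (lower in the activated cells).

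Over the bin pairs, which cover the whole map, 0 of 3509 passed by limma (0%), and the smallest adjusted p was 0.311. At an unadjusted p under 0.05 stood 200 (5.7%), of which 188 were higher in tSBE(6+2-Vp64) (5.36%) and 12 lower (0.342%), where 175 are expected in all. The log2 difference was above 0 in 2649 (75.5%). Replicates did not overlap in 1137 pairs higher in the activated cells (32.4%) and 114 lower (3.25%). Without the 21 long-range pairs this lean was largely gone. The median log2 difference went from 0.57 to 0.048, 52.2% of bin pairs were above 0, and non-overlapping pairs numbered 577 higher (16.4%) and 352 lower (10%). Leaving out also the pair at 45.2 kb brought the median to 7.65e-05. The median moved with single replicates too: it was -0.03 without tSBE(6+2-Vp64) replicate 1, 0.14 without its technical replicate 1 alone, and 1.18 without replicate 2. The count of passing bin pairs was 13 when only the 2 groups were fitted (8 higher, 5 lower), 21 without ESC replicate 1 (17 and 4) and 19 without ESC replicate 2 (14 and 5).

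**Figure D4:**
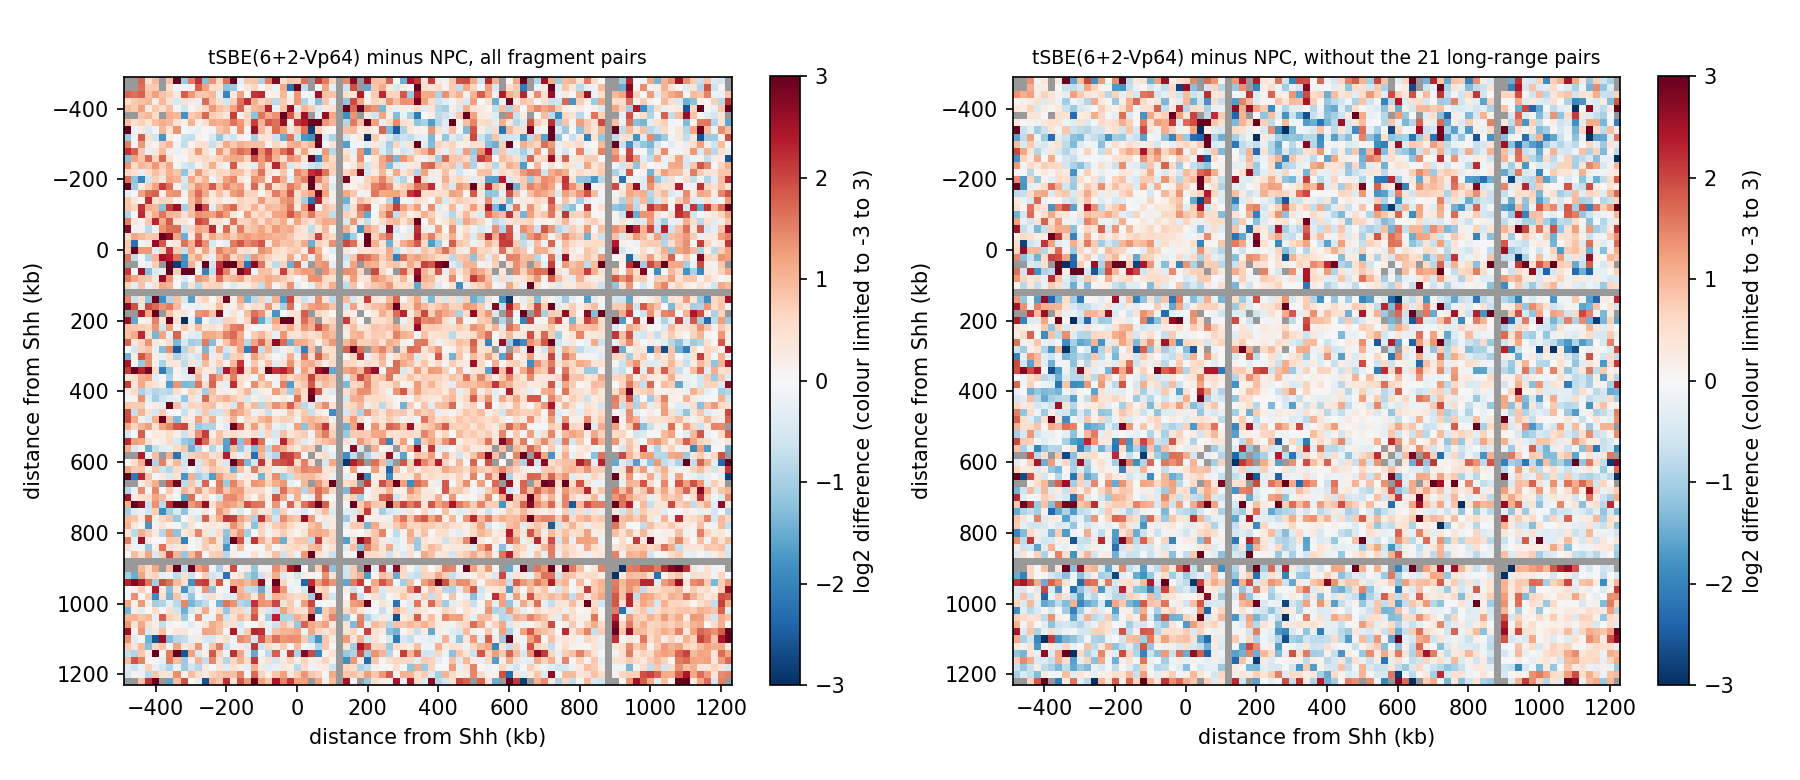
Log2 difference of tSBE(6+2-Vp64) from NPC for pairs of 20-kb bins, with distance from Shh on both axes, red for higher and blue for lower in tSBE(6+2-Vp64); grey cells had no tested bin pair. With all pairs (left) 75.5% of bin pairs are above 0, and without the 21 long-range pairs (right) 52.2%.

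The 5 bin pairs with the smallest p among those higher in the activated cells each rested on 1 or 2 fragment pairs that were at or near 0 in all NPC libraries. None passed the joint test. Bins 29060001 and 29440001, inside the domain, hold only Shh_234 with Shh_366. That pair had 410, 1040, 1294 and 222 reads in the 4 tSBE(6+2-Vp64) libraries, 1, 0 and 0 in the NPC libraries, and 417 and 680 in ESC. The deepest NPC library, with 43175691 reads in all, holds the 1. The signal was 0.0198 and 0.0705 in tSBE(6+2-Vp64) and 0.0190 and 0.0329 in ESC (log2 difference from NPC 5.56, SE 0.98, adjusted p = 0.311 by limma). A log2 difference against values at 0 is set by the pseudocount and is no measured fold. The pair was higher in 2 of 2 replicates and passed on the 2 groups alone (adjusted p = 0.0327 by limma). With the replicate number as a block (adjusted p = 0.0180) or technical replicates as columns (adjusted p = 0.0365) it passed by limma as well.

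Bins 28820001 and 29740001, from inside the domain near Shh to the Nom1 window, hold only Shh_158 with Shh_470, with 829, 1339, 296 and 0 reads in tSBE(6+2-Vp64), 0 in all 3 NPC libraries, and 398 and 198 in ESC. Bins 28660001 and 30000001 hold only Shh_107 with Shh_555, with 859, 1867, 0 and 240 reads, again 0 in all 3 NPC libraries. Bins 28420001 and 28980001 hold only Shh_32 with Shh_212, with 1638, 1692, 352 and 0 reads and 3, 0 and 2 in NPC. In bins 28480001 and 28840001, the former in the En2 window, Shh_44 with Shh_162 had 2008 and 1339 reads in replicate 1 but 1 and 0 in replicate 2, and 1, 0 and 0 in NPC. All 5 of these fragment pairs were read in both ESC replicates, which had a read in 86.7% and 49.9% of all 28980 pairs. The fit that ranked the bin pairs also included the ESC replicates. Over the whole map, 3852 fragment pairs (13.3%) were read in all 7 distinct libraries, and they held 69.8% of the tSBE(6+2-Vp64) signal and 81.7% of the NPC signal. A further 176 (0.607%) were read in all 4 tSBE(6+2-Vp64) libraries and in no NPC library, 91 of them (51.7%) also in both ESC replicates. Together the 176 held 0.262% of the signal of the activated cells. No fragment pair was read in all 3 NPC libraries and in no tSBE(6+2-Vp64) library. Without replicate 1, technical replicate 1, which had a read in 99.7% of pairs, 491 (1.69%) were, against 176 the other way. With libraries thinned to equal depth and that library left out, the counts were 1121 (3.87%) against 149 (0.514%). The tSBE(6+2-Vp64) libraries left then had a read in 25.5% to 60.5% of pairs, and the NPC libraries in 53.7% to 57.3%. These counts depend on that share too, and do not mark contacts as particular to NPC.

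The 5 bin pairs with the smallest p among those lower in the activated cells were again mostly single fragment pairs, here high in NPC. Bins 29500001 and 29560001, the former in the Rnf32 window, had 0.537 and 0.2998 in tSBE(6+2-Vp64) while NPC had 2.21 and 2.44. The log2 difference was -2.53 with an SE of 0.74 (adjusted p = 0.675 by limma). Shh_379 with Shh_403 gave 99.5% of the NPC value. Bins 29680001 and 29700001, both in the Lmbr1 window, had 0.0440 and 0.149 against 0.444 and 0.896 (log2 -2.95, SE 0.85). Bins 28380001 and 29880001, from the Insig1 window across the whole domain, had 0.0321 and 0.0684 against 0.261 and 0.307 (log2 -2.57, SE 0.67). Bins 29040001 and 29400001 had 0.0631 and 0.287 against 0.618 and 0.803 (log2 -2.38), and bins 28420001 and 29160001, the latter in the SBE4 window, 0.0415 and 0.0502 against 0.160 and 0.138 (log2 -1.69). In all 5 both replicates of the activated cells lay below both of NPC. A single fragment pair, of the 3 to 12 in each, held 95.8% to 99.5% of the NPC level, and without it all 5 log2 differences turned positive (0.54 to 1.84). With the highest fragment pair left out of every bin pair, 72.7% of 3244 bin pairs were above 0, with a median of 0.56. The turn shows only that 1 fragment pair made each low value. On the 2 groups alone, the first 4 passed by limma, with adjusted p of 0.0317, 9.70e-05, 0.00236 and 0.00921. With either ESC replicate left out, the same 4 passed by limma, as did 4 of the 5 higher bin pairs (all but 28820001 with 29740001). With the replicate number as a block, 29680001 with 29700001 and the higher pair 28480001 with 28840001 passed too (adjusted p = 0.0451 each by limma).

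Seen from single elements, bins higher in the activated cells outnumbered lower ones for Shh and for each of the 4 enhancers, the 5 elements viewed this way. Of 82 bins seen from Shh, 31 were higher without overlap and 2 lower, and from SBE4 29 and 0. From SBE6 25 were higher and 3 lower, from SBE2 19 and 5, and from ZRS 16 and 3. As shares of bin pairs, 37.8% of those of Shh, 35.4% of SBE4, 30.5% of SBE6, 26.8% of SBE2 and 22.6% of ZRS were higher without overlap. The share over the map was 32.4%, so those of SBE6, SBE2 and ZRS were below it. The median log2 difference of the 164 bin pairs of Shh was 0.62. It was 0.081 without the 21 pairs, 0.22 without tSBE(6+2-Vp64) replicate 1 and 1.19 without replicate 2.

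As whole maps, the activated cells were about equally like NPC and ESC by rank, and the likeness was weak in both cases. Correlations here are across fragment pairs, which share distance, oligonucleotides and depth and are not replicates, so they are descriptions. Spearman correlation between a tSBE(6+2-Vp64) library and an NPC library had a median of 0.365 over 12 library pairs (0.267 to 0.469), and with an ESC library 0.340 over 8 (0.313 to 0.672). Libraries of different tSBE(6+2-Vp64) replicates correlated at 0.294 to 0.349. Its technical replicates correlated at 0.471 and 0.284, within the range spanned with NPC and ESC libraries. For none of the 4 tSBE(6+2-Vp64) libraries was the most similar library an NPC library. For replicate 1, technical replicate 1 it was ESC replicate 1 (0.672), for the next 2 it was tSBE2-Vp64 (0.478 and 0.361), and for replicate 2, technical replicate 2 it was tSBE6-Vp64 (0.346). The latter names are transfected ESC groups of 1 library each, labelled for a single enhancer. From the other side, NPC replicate 2 was most like replicate 1, technical replicate 1 of tSBE(6+2-Vp64) (0.469), above its likeness to the other NPC libraries.

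**Figure D5:**
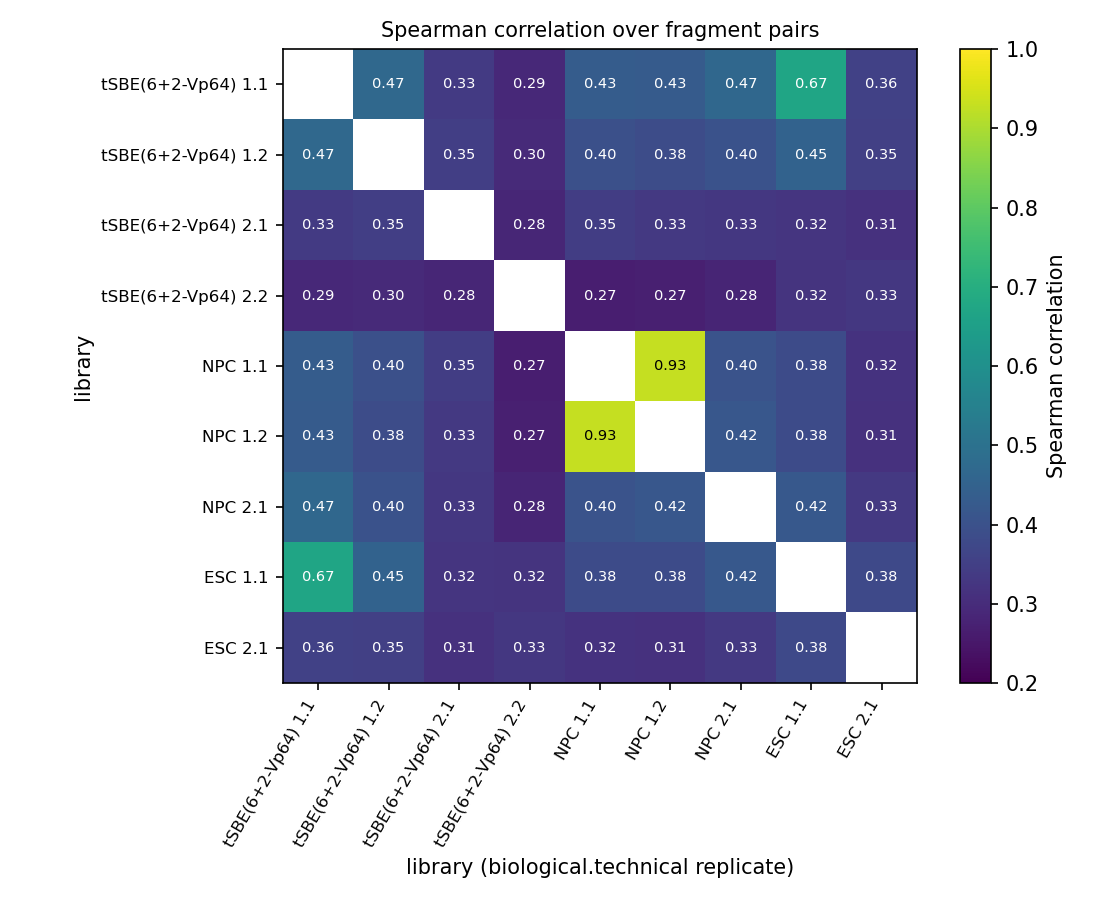
Spearman correlation over 28980 fragment pairs between 9 libraries, named by biological and technical replicate. The brightest cells join the NPC technical replicates 1.1 and 1.2 (0.93), and then tSBE(6+2-Vp64) 1.1 with ESC 1.1 (0.67).

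NPC replicate 1, technical replicates 1 and 2 correlated at 0.930, whereas NPC libraries of different replicates correlated at 0.403 and 0.418. By rank the library deposited under both replicates was therefore nearer to the other technical replicate of replicate 1 (0.930) than to that of replicate 2 (0.403). By Pearson correlation it was not, at 0.981 and 0.989. With linear values the reading turned on the 21 pairs. Pearson correlation of tSBE(6+2-Vp64) with NPC had a median of 0.853 (0.528 to 0.938) and with ESC 0.725, but without the 21 pairs it was 0.531 with NPC and 0.853 with ESC. Without the pair at 45.2 kb too, it was 0.756 with NPC and 0.853 with ESC. The library that stood apart had 0.905 to 0.938 with NPC and 0.146 and 0.704 with ESC over all pairs. Without the 21 pairs it had 0.527 to 0.545 with NPC and 0.405 and 0.388 with ESC, so for this library the order did not turn.

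The highest long-range contacts of the activated cells were found among those of NPC in over 50 of 100 cases, whereas the overlap with ESC depended on the ESC replicate. Of the 100 highest pairs over 50 kb apart in tSBE(6+2-Vp64) replicate 1, 59 and 55 were also among the 100 highest of NPC replicates 1 and 2, and of those in replicate 2, 64 and 63. The overlap with ESC was 25 and 53 for replicate 1 and 8 and 61 for replicate 2, in the order of the ESC replicates. With the tSBE2-Vp64 library, from transfected ESC, it was 68 for each replicate, above that with either NPC replicate. That library in turn shared 78 and 73 with NPC replicates 1 and 2. With tSBE6-Vp64 the overlap was 40 for replicate 1 and 24 for replicate 2. The 2 tSBE(6+2-Vp64) replicates shared 53 with each other, and the NPC replicates 85. The replicates of the activated cells thus had at least as many of these pairs in common with NPC as with each other.

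With all libraries, the 2 replicates of the activated cells differed from each other by more than the group means did. Over the 91 element pairs the median absolute log2 difference was 1.23 between the 2 tSBE(6+2-Vp64) replicates, 0.315 between the NPC replicates and 0.515 between the ESC replicates. Technical replicates differed by 1.32 and 0.751 in tSBE(6+2-Vp64) and by 0.269 in NPC. Between the means of tSBE(6+2-Vp64) and NPC it was 0.438, and between those of tSBE(6+2-Vp64) and ESC 0.309. Means of 2 replicates carry less noise than single replicates, so these values are not on the same footing as those between replicates. The difference between the tSBE(6+2-Vp64) replicates ran mostly one way, with a signed median of 1.22 (replicate 1 higher), and that between the technical replicates of replicate 1 likewise (1.31, technical replicate 1 higher). Without that library the replicates of the activated cells differed by 0.472, and their mean differed from that of NPC by 0.298.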

How the data were processed

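The deposited values are 5C signal in reads per 1000 reads of a library, as symmetric matrices of HindIII fragments in mm9 per the submitters' processing notes. No source used here names the aligner or filters. Each library was rescaled to 1000 over the shared fragments, technical replicates were averaged, and the duplicated NPC library was counted once. Fragment pairs were averaged in pairs of 20-kb bins (kept where above 0 in at least 2 replicates) and between element windows at approximate positions. Log2 of the value plus 8.09e-04 (5th percentile of nonzero bin pairs) was fitted with limma 3.58.1 (R 4.3.3; lmFit, eBayes with trend) over 5 groups, without covariates and with 3 residual degrees of freedom. The element-pair fit took all of its spread from the trend. Benjamini-Hochberg adjusted p under 0.05 passed. The code was tested on simulated data. Other values used Python 3.11.15, numpy 2.4.6, pandas 2.3.3 and scipy 1.17.1. Members, elements and lists were chosen with earlier results of these data known. Named features were the pairs of Shh with its enhancers and among the neural enhancers, the 5 element pairs of smallest p, and the 5 bin pairs of smallest p in each direction, and other pairs are named after their values were seen. Leaving out every pair over 20 kb apart with over 0.5% of a library was added after seeing the data. Averages made by the authors were not used, since they hold the duplicated library.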

Additional observations from a re-analysis of the deposited data

Results flagged for a closer look

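Of 18 measures checked in the 4 tSBE(6+2-Vp64) libraries, 2 had a library far from the other three, where chance gives about 1 in 20. Shh with ZRS was highest in replicate 1, technical replicate 1 (0.0386 per 1000), against 0.0130 to 0.0152 in the other libraries. Cnpy1 with Shh was highest in the same library (0.0225). It is the library with a read in 99.7% of fragment pairs.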

How the results depend on the processing

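Over 27 alternatives the bin pairs that passed numbered 2 with 40-kb bins, 13 with only the 2 groups fitted, 1 with technical replicates as columns, 0 to 21 with 1 replicate left out, and 0 otherwise except under the block below. Element pairs that passed numbered 1 with quantile normalization, 2 with only the 2 groups, 2 with only pairs over 50 kb, 0 to 2 with 1 replicate left out, and 0 otherwise. The log2 difference of Shh with SBE6 was -0.33 with 10-kb windows, -0.24 with quantile normalization, -0.046 with technical columns, and -0.62 to 0.85 with 1 replicate or library left out. Without the 21 long-range pairs it was -0.42 for SBE6, -0.0029 for SBE2 and -0.054 for ZRS. Without all high pairs over 20 kb apart the contact with SBE6 stood at -0.47, with SBE2 at -0.053, with SBE4 at -0.037 and with ZRS at -0.11. Shh with SBE4 was -1.61 with 40-kb windows, and with 1 left out Shh with SBE2 ran from -0.14 to 1.17. SBE6 with SBE2 was 0.63 with 10-kb windows, 0 with quantile normalization, 0.52 without its highest fragment pair, -1.82 with only the 2 groups, and -1.88 to -1.64 with 1 left out. SBE6 with SBE4 was -0.25 (quantile), -0.32 (without the 21 pairs), -0.37 (without all high pairs), -0.12 (without its highest pair) and -0.53 to 0.96 with 1 left out. SBE4 with SBE2 was -0.13 (scaled by distance), -0.30 (quantile), -0.036 (duplicated library in neither), -0.43 (without the 21 pairs), -0.48 (without all high pairs) and -0.041 to 0.23 with 1 left out. Of the lower bin pairs, 28380001_29880001 was 1.05 without its highest fragment pair, 29680001_29700001 was 0.16 with 10-kb bins and 0.54 without that pair, and 29500001_29560001 was 1.148 without all high pairs, 1.84 without its highest and 2.23 with only pairs over 50 kb. Likewise 29040001_29400001 was 0.96 and 28420001_29160001 2.68 with 10-kb bins, and 0.54 and 1.08 without the highest. The domain-flank difference was -3.92 points without the 21 pairs, -4.86 without all high pairs and -9.76 with only pairs over 50 kb. The within-domain difference was -0.193 and 1.82 in the first and second of these, and the slope difference was 0.041 without the 21 pairs and -0.30 with only pairs over 50 kb. Rank correlation was varied over 20-kb bin pairs between biological replicates, not over fragment pairs between libraries as above. Its median with NPC less that with ESC was 0.0099, and -0.072 to 0.037 with 1 left out. Beyond the fragment pairs or samples left out, the cause was not tested.

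With a replicate block, 3 bin pairs (2 higher, 1 lower) and 0 element pairs passed. Deviations of same-numbered samples correlated at -0.000197, so the numbers were not taken to pair samples. The planned edgeR and DESeq2 tests on recovered reads were not run. Depth ran from 978050 to 43175691 reads, and 2526 of 3509 bin pairs hold 10 or fewer fragment pairs.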
